A study of Mus musculus with 5 samples.

Results

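Chemokine ligands are small secreted proteins that direct the movement of leukocytes. All 38 genes with the symbol of a chemokine ligand (Ccl, Cxcl, Cx3cl or Xcl followed by a number and at most 1 letter) were taken from a table of 78334 mouse gene identifiers, of which 51486 (65.7%) could be given a symbol. Visceral fat of male C57BL/6 mice, an inbred strain, gave 5 RNA libraries. The resveratrol group (2 libraries) came from mice that ate a diet with 60% of its energy as fat for 8 weeks from 8 weeks of age. From 16 weeks of age these mice were given resveratrol, a plant polyphenol, by gastric tube at 2.25 mg/kg daily for 28 days. The obesity group (2 libraries) came from mice on the same diet given vehicle, and the control group (1 library) was fed standard chow and also received vehicle. Whether libraries of 1 group are different animals is not stated in the labels, and the p-values cover no more than the spread among these libraries.

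Chemokines are named for the spacing of their first cysteines (C, CC, CXC and CX3C) and act on G protein-coupled receptors of leukocytes, while atypical receptors take them up without signalling. Inflammatory members are induced in stressed or infected tissue and draw in monocytes, neutrophils, eosinophils and effector T cells. Lymphoid-homing members are made steadily by stromal and endothelial cells and lead lymphocytes and dendritic cells to lymph nodes, spleen, thymus and fat-associated lymphoid clusters. In obese fat, CCL2 acting on CCR2 is the textbook route by which monocytes enter and become macrophages. Of the 38 genes, 27 were listed as inflammatory, 6 as lymphoid-homing and 5 as other homeostatic genes.

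Total counts ranged from 19540961 to 27026597, and 3 counts, used as the detection floor, correspond to 0.105 to 0.156 CPM. Levels are CPM, the count divided by the TMM-scaled library total, so that libraries of different depth can be compared. The libraries differed in tissue content. The 10 adipocyte markers summed to 5939 and 24020 CPM in resveratrol libraries 1 and 2, to 22070 and 24040 CPM in the obese group and to 463 CPM in the control library, with no marker at 0. The 9 epididymis markers summed to 3407 and 0.350 CPM after resveratrol, 17.3 and 0.285 CPM in obese fat and 57970 CPM in the chow control. In resveratrol library 1 Crisp1 alone was at 3393 CPM. Spink11 was at 11.5 CPM there and each other epididymis marker under 1 CPM, with Cst11 and Lcn8 at 0. In the chow control none of the epididymis markers was at 0. The 7 smooth muscle markers summed to 44430 CPM in resveratrol library 1 and to between 321 and 2300 CPM in the other libraries. The 12 macrophage markers summed to 558 and 3485 CPM after resveratrol, 3186 and 2942 CPM in obese fat and 236 CPM in the chow control, with no marker at 0. Markers of the labelled tissue were thus lowest in the control library, which with resveratrol library 1 stood apart, and each result below is given by library for that reason. In bulk tissue, fewer cells of a type and less RNA per cell cannot be told apart.

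The family as a whole was led by inflammatory members in obese fat. The 38 genes summed to 460 and 1113 CPM in resveratrol libraries 1 and 2, to 1339 and 1256 CPM in obesity libraries 1 and 2, and to 205 CPM in the control library. Inflammatory members made up 44.4% and 75.2% of those counts after resveratrol, 81.2% and 84.1% in obesity and 39.5% in the chow control. Lymphoid-homing members made up 42.7% and 23.2% after resveratrol, 13.9% and 11.2% in obesity and 36.9% in the chow control. The inflammatory sum was 204 and 838 CPM after resveratrol, 1087 and 1056 CPM in obese fat and 80.8 CPM in the chow control. Cx3cl1 alone held 56.6 CPM of it in the chow control and 45.6 CPM in resveratrol library 1. For lymphoid-homing members the sum was 197 and 258 CPM after resveratrol, 186 and 141 CPM in obese fat and 75.4 CPM in the chow control. The inflammatory sum was thus low in the libraries with few macrophage and adipocyte transcripts, while both resveratrol libraries lay above both obesity libraries in the lymphoid-homing sum. Most of that sum was Cxcl12, at 137 and 230 CPM after resveratrol and 176 and 131 CPM in obese fat, where the groups overlapped. Next in resveratrol library 1 came Ccl21a, at 40.0 CPM, so different genes lifted the sum in the 2 resveratrol libraries.

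**Figure D1:**
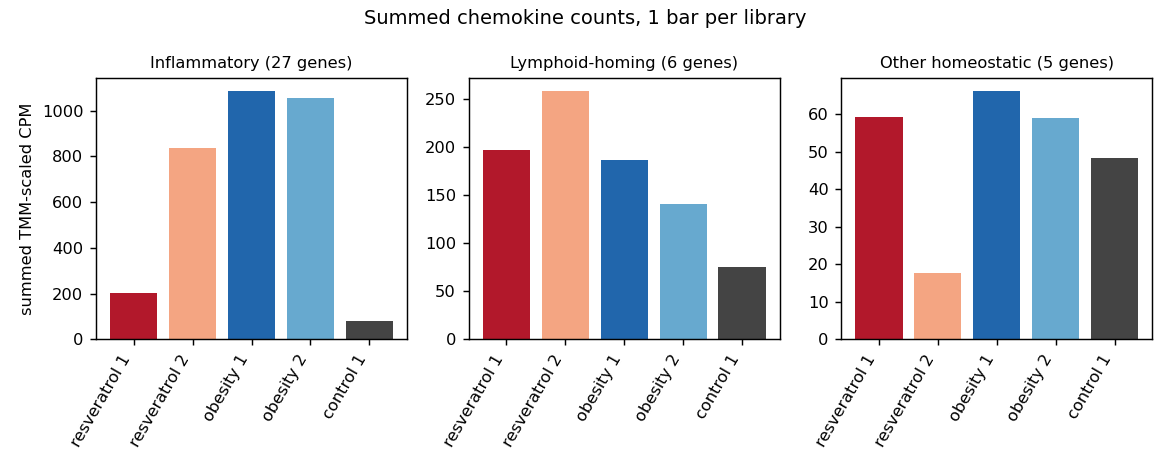
Bars give the summed TMM-scaled CPM of inflammatory, lymphoid-homing and other homeostatic chemokine genes, 1 bar per library, with separate vertical scales. Inflammatory genes sum to 204 and 838 CPM after resveratrol, 1087 and 1056 CPM in obese fat and 80.8 CPM in the chow control.

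Per kilobase of exon, which allows genes to be compared with each other, Ccl6 and Ccl9 were the most abundant ligands in obesity. Ccl6 stood at 206 and 205 CPM per kb in the obesity libraries and Ccl9 at 158 and 148 CPM per kb. These neighbours in the order did not overlap, but by CPM Ccl9 was above Ccl6 in both obesity libraries. Their order here rests on the length of all annotated exons together, 1795 bases for Ccl6 and 3045 for Ccl9. Next came Ccl11 at 56.2 and 63.8 CPM per kb, then Ccl7 at 54.6 and 39.2, Cxcl14 at 33.6 and 30.0, Ccl8 at 36.8 and 15.4, Ccl2 at 22.5 and 26.9 and Cxcl12 at 21.6 and 16.0. Among those from Ccl7 down, the 2 libraries of Ccl8 spanned the values of Cxcl14, Ccl2 and Cxcl12, so the place of Ccl8 among them does not exceed the spread. The order in resveratrol library 2 was alike at the top, with Ccl6 at 167, Ccl9 at 93.6 and Ccl11 at 54.4 CPM per kb. In resveratrol library 1 Ccl21a led at 46.0 CPM per kb, ahead of Ccl21b at 29.9, Cxcl14 at 23.1 and Ccl6 at 22.4. The annotated Ccl21b holds coding bases alone, 402 against 870 exon bases for Ccl21a. By CPM Ccl21b was below Cxcl14 and Ccl6 in that library. Reads of the Ccl21 copies can also be assigned to each other, as described below. The control library was led by Cxcl14 at 19.6 CPM per kb, Cx3cl1 at 14.4 and Ccl21a at 13.9. Exon lengths came from an annotation of build GRCm38, while the counts were made on GRCm39.

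A filter on low counts kept 24779 genes, among them 30 of the 38 ligands, and 28 ligands reached 1 CPM in at least 1 library. The 8 ligands that were not tested were Ccl1, Ccl20, Ccl26, Ccl27b, Cxcl3, Cxcl5, Cxcl17 and Xcl1, whose highest values lay between 0.0454 CPM (Ccl20) and 0.318 CPM (Ccl27b). Ccl28 and Cxcl11 were tested but stayed under 1 CPM everywhere. Ccl28, a mucosal chemokine, was at 0.0908 and 0.233 CPM after resveratrol, 0.261 and 0.0951 CPM in obese fat and 0.557 CPM in the chow control. Since the filter can be met through 1 high library, counts over tested members describe these libraries and support nothing further.

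**Figure D2:**
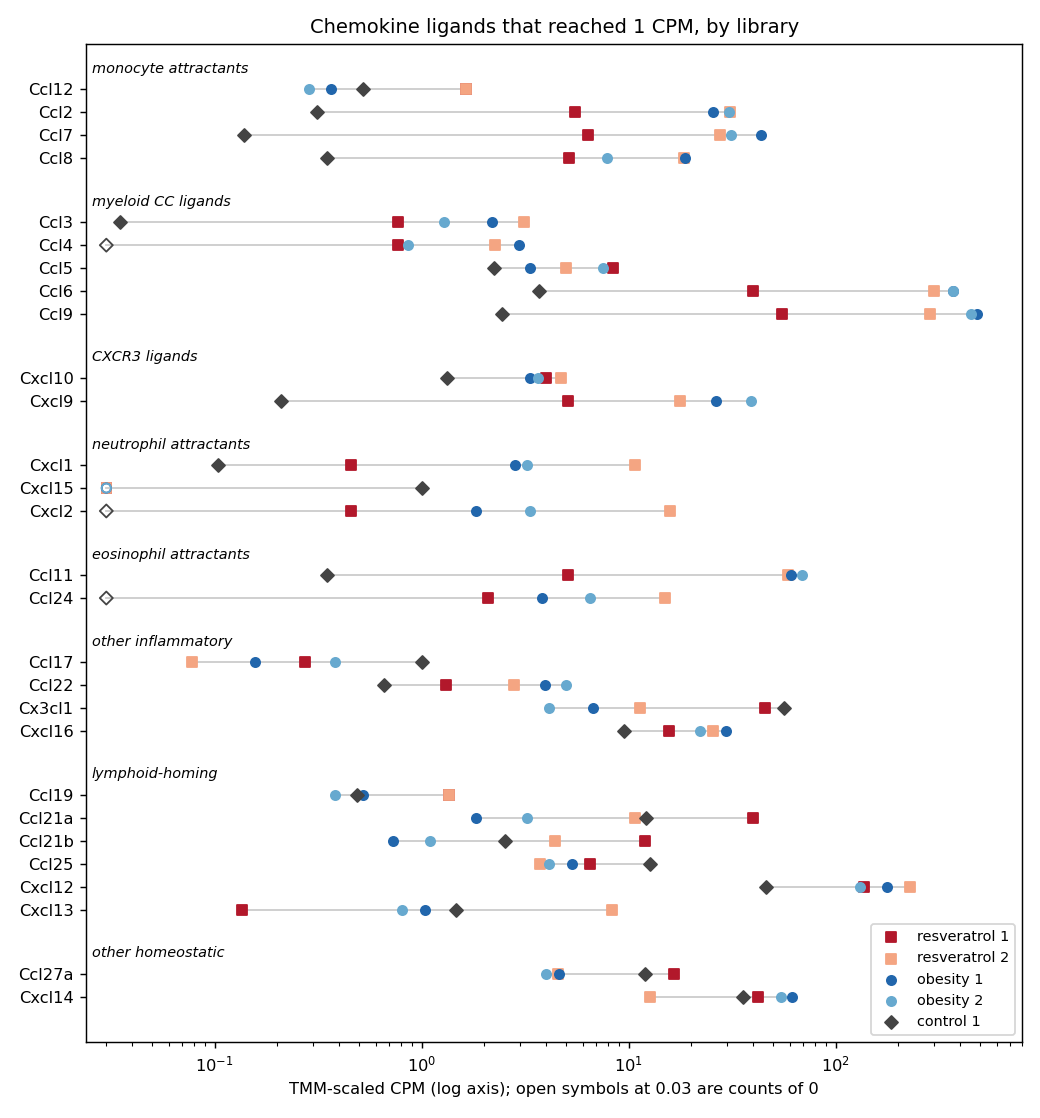
Each row is a ligand that reached 1 CPM, each symbol a library (squares resveratrol, circles obesity, diamonds control), on a log axis of TMM-scaled CPM, with counts of 0 drawn open at the left edge. The control library is the lowest of the 5 for 16 of 20 inflammatory ligands and 1 of 6 lymphoid-homing ligands. The share of all genes with that rank was not counted, so these counts describe the drawn ligands only. The resveratrol symbols of Ccl12 and of Ccl19 coincide.

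Obesity was compared with control to ask how visceral fat on the high-fat diet differs from that on chow. Most inflammatory ligands stood far higher in each obesity library than in the chow control, and most lymphoid-homing ligands stood lower. Of 21 tested inflammatory ligands 17 were higher in obesity, with a median log2 difference of 5.44, and of 6 lymphoid-homing ligands 1 was higher, with a median of -1.04. Both obesity libraries lay above the control library for 19 of 30 ligands (background 40.8%) and below it for 10 (background 48.6%). Over all genes tested the median was -0.10 and 46.9% were higher. In edgeR's quasi-likelihood test 0 of 30 ligands passed an adjusted p of 0.05 (0% of all genes passed), and the smallest adjusted p of a ligand was 0.176. At an unadjusted p under 0.05 there were 13 ligands higher and 1 lower, against 12.6% of all genes higher and 11.7% lower. DESeq2 called 13 ligands higher and 1 lower at an adjusted p of 0.05, against 10.8% and 7.44% of all genes, and limma-voom called 0. The lower one was Cx3cl1 in both tests. The number of ligands called by edgeR rested on the resveratrol libraries, which share in the estimate of the spread. Without resveratrol library 1 it was 22 of 30 (37.9% of all genes were called), and 20 when library 2 of that group was left out (37.3% of all genes).

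Among the monocyte attractants, Ccl7 and Ccl2, both ligands of CCR2, were barely detected in the control library. Ccl7 was at 43.7 and 31.4 CPM in the obese group and at 0.139 CPM in the chow control (4 counts, 95% exact interval 0.0380 to 0.357 CPM), giving a log2 difference of 8.02 with a standard error (SE) of 1.49 (unadjusted p = 0.00528, adjusted p = 0.177). Ccl2 was at 25.6 and 30.6 CPM in obese fat and at 0.314 CPM in the chow control (95% exact interval 0.143 to 0.595 CPM), giving a log2 difference of 6.46 (SE 1.53, adjusted p = 0.182). Both obesity libraries lay far above the control library for these genes. Ccl8, a related ligand that acts on CCR8 in mice, was at 18.8 and 7.89 CPM in obese fat and 0.348 CPM in the chow control. Ccl12, the remaining monocyte attractant of this mouse gene cluster, went the other way and was scarce, at 0.365 and 0.285 CPM in obese fat and 0.523 CPM in the chow control.

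Ccl3, Ccl4, Ccl5, Ccl6 and Ccl9, CC ligands made largely by myeloid cells and in part by T cells, held most of the chemokine counts in obesity. Ccl9 was at 481 and 450 CPM in the obese group and at 2.44 CPM in the chow control (95% exact interval 1.90 to 3.08 CPM), giving a log2 difference of 7.57 (SE 1.55, unadjusted p = 0.00743, adjusted p = 0.181). Ccl6, its neighbour on chromosome 11, was at 369 and 368 CPM in obese fat and 3.69 CPM in the chow control. Ccl3 and Ccl4, the macrophage inflammatory proteins, were low throughout. Ccl3 was at 2.19 and 1.28 CPM in obese fat and 0.0348 CPM in the chow control, and Ccl4 at 2.97 and 0.856 CPM in obese fat with 0 counts in the chow control, at least 18.3-fold higher in obesity against a floor of 3 counts in that library. Ccl5, a product of T cells and other cytotoxic cells, differed least of the 5, at 3.34 and 7.51 CPM in obese fat and 2.23 CPM in the chow control.

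Of the interferon-induced CXCR3 ligands, Cxcl9 was the highest in obesity, at 26.4 and 39.1 CPM, against 0.209 CPM in the chow control, giving a log2 difference of 7.26 (SE 1.28, unadjusted p = 0.00427, adjusted p = 0.176). Cxcl10 differed less, at 3.34 and 3.66 CPM in obese fat and 1.32 CPM in the chow control. Cxcl11, annotated as a polymorphic pseudogene in this strain's reference, was at 0.365 and 0.904 CPM in obese fat and at 0 counts in the chow control. The eosinophil attractant Ccl11 (eotaxin) was at 60.8 and 69.1 CPM in obese fat and 0.348 CPM in the chow control. Ccl24, the other eotaxin gene detected, was at 3.81 and 6.52 CPM in obese fat and at 0 counts in the chow control, at least 49.4-fold higher against the floor. Every obesity value of these genes lay above the control value.

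A few inflammatory ligands ran against the majority. Cx3cl1 encodes fractalkine, a membrane-bound chemokine of endothelial, epithelial and neuronal cells. It was at 6.72 and 4.14 CPM in the obese group and 56.6 CPM in the chow control (95% exact interval 53.9 to 59.4 CPM). Cxcl15, known in mice as lungkine and as a product of epithelia, had 29 counts in the chow control (1.01 CPM) and 0 counts in all 4 other libraries, where 3 counts correspond to 0.117 to 0.156 CPM. Ccl17, a ligand of CCR4 made by dendritic cells, was at 0.156 and 0.381 CPM in obese fat and 1.01 CPM in the chow control, whereas Ccl22, which shares that receptor, was at 3.96 and 4.99 CPM in obese fat and 0.662 CPM in the chow control. Cxcl16, a membrane-bound ligand of CXCR6, was at 29.5 and 22.1 CPM in obese fat and 9.55 CPM in the chow control. The control library holds the epididymis markers given above. Their part in the high control levels of Cx3cl1, Cxcl15 and Ccl17 was not tested.

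Among lymphoid-homing ligands, Cxcl12 was the member that stood higher in obesity. It encodes the ligand of CXCR4 that retains stem cells and lymphocytes in their niches, and it was at 176 and 131 CPM in the obese group and 46.2 CPM in the chow control (95% exact interval 43.7 to 48.7 CPM). Its log2 difference was 1.74 (SE 0.513, unadjusted p = 0.0261, adjusted p = 0.184 in edgeR's test). Ccl21a, a CCR7 ligand of lymphatic endothelium and lymph node stroma, was at 1.82 and 3.23 CPM in obese fat and 12.1 CPM in the chow control (95% exact interval 10.9 to 13.4 CPM), giving a log2 difference of -2.25 (SE 0.895, adjusted p = 0.219). Its copy Ccl21b was at 0.730 and 1.09 CPM in obese fat and 2.54 CPM in the chow control, giving a log2 difference of -1.47 (SE 0.831, adjusted p = 0.304). Ccl25, the thymus and gut ligand of CCR9, was at 5.32 and 4.14 CPM in obese fat and 12.7 CPM in the chow control, giving a log2 difference of -1.42 (SE 0.578, adjusted p = 0.222). None of these passed the adjusted threshold.

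Ccl19, the other CCR7 ligand, was at 0.521 and 0.381 CPM in obese fat and 0.488 CPM in the chow control, so the groups overlapped. Its log2 difference of -0.11 (SE 0.843, adjusted p = 0.941 in edgeR's test) was 0.10 without obesity library 2. The B cell attractant Cxcl13 was at 1.04 and 0.809 CPM in obese fat and 1.46 CPM in the chow control, giving a log2 difference of -0.66 (SE 2.07, adjusted p = 0.849). Ccl27a, a skin-homing chemokine of epithelia, was at 4.64 and 4.00 CPM in obese fat and 12.0 CPM in the chow control. Cxcl14, a homeostatic chemokine of epithelia and fibroblasts, was at 61.3 and 54.8 CPM in obese fat and 35.7 CPM in the chow control. Control is 1 library with few adipocyte transcripts, so diet and the tissue sampled cannot be told apart in this comparison.

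Relative to macrophage markers of the same library, Ccl2, Ccl7, Ccl3, Ccl4, Ccl6 and Ccl9 were also lower in the control library than in the other 4, and Ccl5 was not. Per 100 CPM of the 12 macrophage markers, Ccl2 was at 0.992 and 0.887 CPM after resveratrol (libraries 1 and 2), 0.805 and 1.04 CPM in the obese group and at 0.133 CPM in the chow control. Ccl7 was at 1.14 and 0.796 after resveratrol, 1.37 and 1.07 in obesity and 0.0590 in the chow control. Ccl9 was at 9.85 and 8.17 after resveratrol, 15.1 and 15.3 in obesity and 1.03 in the chow control. On this scale the resveratrol and obesity values of Ccl2 and of Ccl7 overlapped, and the control library stood below all 4. Ccl3, Ccl4, Ccl5, Ccl6 and Ccl9 together were at 18.8 and 17.1 after resveratrol, 27 and 28.1 in obesity and 3.55 in the chow control, a sum carried by Ccl6 and Ccl9. Ccl5 alone was at 1.51 and 0.144 after resveratrol, 0.105 and 0.255 in obesity and 0.943 in the chow control, below the control value in all libraries but resveratrol library 1. All inflammatory ligands together, Cx3cl1 and Cxcl16 among them, were at 36.6 and 24 after resveratrol, 34.1 and 35.9 in obesity and 34.2 in the chow control, so that sum per macrophage marker was not lower in the control library. Cx3cl1, Cxcl12 and Ccl21a had another order. Cx3cl1 was at 8.16 and 0.326 per 100 CPM after resveratrol, 0.211 and 0.141 in obesity and 23.9 in the chow control, with the highest ratios in the libraries that had few macrophage transcripts.

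**Figure D3:**
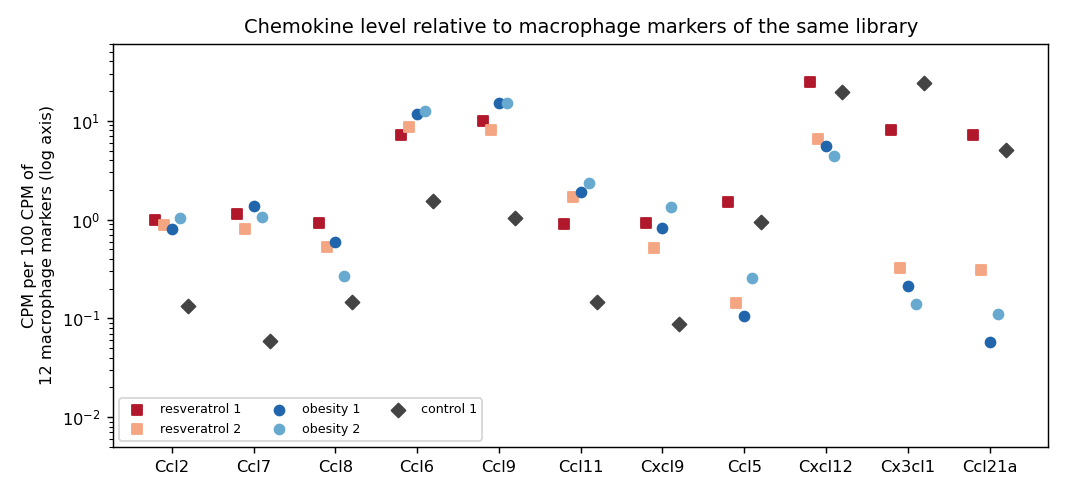
Symbols give the level of 11 ligands per 100 CPM of 12 summed macrophage markers in the same library, on a log axis. Ccl2 lies between 0.805 and 1.04 in the obesity and resveratrol libraries and at 0.133 in the chow control, whereas Cxcl12, Cx3cl1 and Ccl21a are highest in resveratrol library 1 and the control library.

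Resveratrol was compared with obesity to ask what the compound did to fat under the high-fat diet. Of the lymphoid-homing ligands, Ccl19, Ccl21a and Ccl21b stood higher in both resveratrol libraries than in both obesity libraries, while Cxcl12, Cxcl13 and Ccl25 overlapped. Inflammatory ligands were split, with the 2 resveratrol libraries often far apart. The fitted log2 difference was above 0 for 6 of 6 lymphoid-homing ligands, with a median of 1.88 that was 1.03 without resveratrol library 2, 0.98 with limma-voom and 1.11 with a replicate block. Of 21 inflammatory ligands 8 were higher and 12 lower, with a median of -0.32 that was 0.06 without resveratrol library 1 and -1.36 when library 2 was left out. Over all genes tested the median was 0.05 and 52.8% were higher. In edgeR's quasi-likelihood test 0 of 30 ligands passed (0% of all genes passed), and the smallest adjusted p of a ligand was 0.899. At an unadjusted p under 0.05 there were 4 ligands higher and 0 lower, against 1.92% of all genes higher and 0.428% lower. The 4 were Ccl21b, Ccl21a, Ccl12 and Cx3cl1.

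DESeq2 called 2 ligands higher, Ccl21a and Ccl21b, and 0 lower, against 0.803% of all genes higher and 0.0807% lower, and limma-voom called 0. Both resveratrol libraries lay above both obesity libraries for 6 of 30 ligands (background 16.9%) and below them for 7 (background 16.7%), shares near those of all genes. The higher ones were Ccl12, Ccl19, Ccl21a, Ccl21b, Cx3cl1 and Cxcl10, and the lower ones were Ccl6, Ccl7, Ccl9, Ccl11, Ccl22, Cxcl9 and Cxcl14. The count of ligands called by edgeR was 10 of 30 without resveratrol library 2 (19.5% of all genes were called) and 1, Cxcl14, without resveratrol library 1 (0.136% of all genes). Leaving out the control library together with resveratrol library 1, which was chosen after seeing the data, also gave 1 call, for Cxcl14 (0.334% of all genes).

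The Ccl21 genes had the largest log2 differences of the family in this comparison. Ccl21a was at 40.0 and 10.7 CPM in the treated libraries and at 1.82 and 3.23 CPM in the obese group, so the groups did not overlap. The log2 difference was 3.32 (SE 0.828, unadjusted p = 0.0150, adjusted p = 0.899 in edgeR's test). With 1 library left out it ran from 2.09 to 3.98, the latter without resveratrol library 2. Ccl21b was at 12.0 and 4.43 CPM after resveratrol and 0.730 and 1.09 CPM in obese fat, giving a log2 difference of 3.16 (SE 0.758, unadjusted p = 0.0128, adjusted p = 0.899). With 1 library left out that difference ran from 2.28 to 3.72, the latter without resveratrol library 2. For both genes, resveratrol library 1 was the highest of all 5 libraries.

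Mouse Ccl21 is a family of near-identical gene copies on chromosome 4, which encode a serine and a leucine form of the protein, and reads from one copy can be assigned to another. Over the 402 coding bases of Ccl21b, Ccl21a differed at 2 positions (identity 99.5%), written T84A and C194T, with the base of Ccl21a first, the position counted from 1 at the first base of the start codon, then the base of Ccl21b. The stretches around both positions are shown because only reads that cover one of them, or the flanking transcript, separate these copies. They are in the sense of the transcript from GENCODE M21 (build GRCm38), and the capital marks the base that differs.
Ccl21a, coding bases 54 to 114: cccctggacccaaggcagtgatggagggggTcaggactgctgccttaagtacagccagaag
Ccl21b, coding bases 54 to 114: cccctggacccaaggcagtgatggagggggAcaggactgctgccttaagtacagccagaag
Ccl21a, coding bases 164 to 224: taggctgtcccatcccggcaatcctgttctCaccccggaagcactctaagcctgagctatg
Ccl21b, coding bases 164 to 224: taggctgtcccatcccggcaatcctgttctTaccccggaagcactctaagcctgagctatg
Of the 303 windows of 100 bases in the annotated Ccl21b transcript, which holds the coding bases alone, 119 (39.3%) also occur in Ccl21a. The level of each copy is therefore uncertain, and the sum of Ccl21a and Ccl21b is given as well. Further Ccl21 copies of GRCm39 have no symbol in the reference used here, were not analysed and are not in that sum. Together Ccl21a and Ccl21b stood at 52.0 and 15.2 CPM after resveratrol, 2.55 and 4.33 CPM in obese fat and 14.6 CPM in the chow control, so the groups still did not overlap. Ccl27a and Ccl27b share 131 such windows, 40.2% of those of Ccl27b, and have the same limit.

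Ccl19 was at 1.36 CPM in both resveratrol libraries, against 0.521 and 0.381 CPM in obese fat. These levels rest on 30 and 35 counts after resveratrol and 10 and 8 counts in obesity. The log2 difference was 1.58 (SE 0.697, unadjusted p = 0.0822, adjusted p = 0.899 in edgeR's test). CCR7, the receptor that Ccl19 and Ccl21 share on T cells and mature dendritic cells, was encoded by few transcripts. Ccr7 was at 1.91 and 4.43 CPM after resveratrol, 0.678 and 2.76 CPM in obese fat and 0.418 CPM in the chow control, so its groups overlapped. Ackr4, an atypical receptor that scavenges CCL19, CCL21 and CCL25, was at 2.81 and 5.79 CPM after resveratrol and 0.886 and 0.666 CPM in obese fat, giving a log2 difference of 2.47 (SE 0.599, unadjusted p = 0.0133, adjusted p = 0.899). In control Ackr4 was at 17.5 CPM. Ltb, which encodes lymphotoxin beta, a signal for lymphoid stroma, was at 1.95 and 2.99 CPM after resveratrol, 0.573 and 0.666 CPM in obese fat and 0.348 CPM in the chow control.

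Markers of the cells that make or follow these ligands also differed between libraries. The 6 lymphatic endothelial markers summed to 56.3 and 85.6 CPM after resveratrol, 31.3 and 28.6 CPM in obese fat and 89.4 CPM in the chow control. Pdpn held 71.0 CPM of that sum in the chow control. Mmrn1 (7.94 and 2.45 CPM), Reln (8.58 and 1.98 CPM) and Prox1 were higher in resveratrol library 1 than in library 2. Lyve1 (9.85 and 28.6 CPM), Flt4 (9.94 and 19.8 CPM) and Pdpn (18.8 and 32.4 CPM) had the opposite order. Prox1, the defining factor of lymphatic endothelium, was at 1.23 and 0.311 CPM after resveratrol, 0.469 and 0.0951 CPM in obese fat and 0 counts in the chow control. The 7 B cell markers summed to 7.81 and 32.8 CPM after resveratrol, 6.36 and 5.80 CPM in obese fat and 0.557 CPM in the chow control, where 5 of the 7 were at 0. The 8 T cell markers summed to between 8.18 and 13.8 CPM in all 5 libraries. The part of these cells in the levels of Ccl21a, Ccl21b and Ccl19 was not tested.

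Cxcl13, which leads B cells into follicles, was high in 1 library. After resveratrol it was at 0.136 and 8.28 CPM in libraries 1 and 2, against 1.04 and 0.809 CPM in the obese group, so resveratrol library 1 was the lowest and resveratrol library 2 the highest of all. The log2 difference was 2.18 (SE 1.78, adjusted p = 0.899 in edgeR's test), and -2.71 without resveratrol library 2. Cxcr5, the receptor of CXCL13, was at 0.499 and 2.37 CPM after resveratrol, at 0 counts and 0.0476 CPM in obese fat and at 0 counts in the chow control. Resveratrol library 2 thus had the highest Cxcl13 and Cxcr5.

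**Figure D4:**
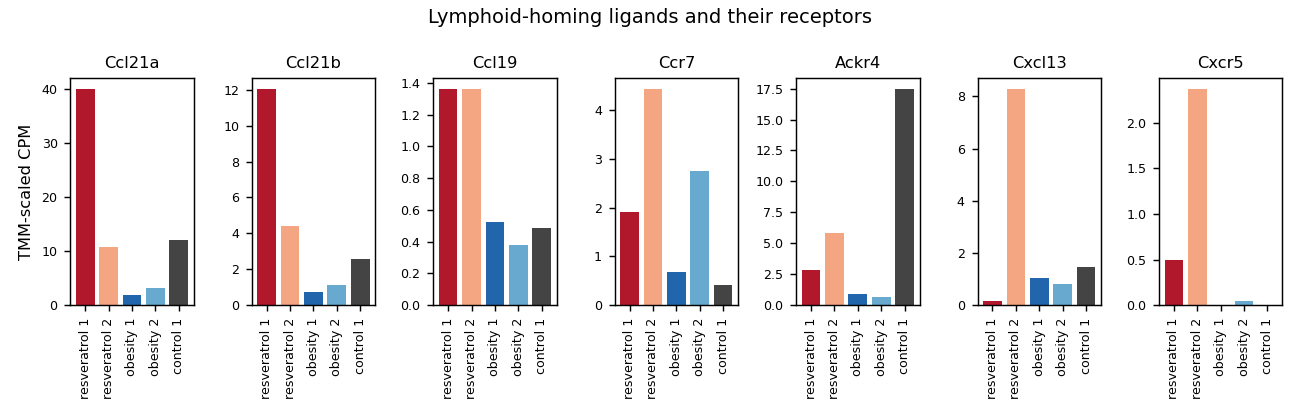
Bars give the TMM-scaled CPM of 3 CCR7 ligands, the receptor genes Ccr7 and Ackr4, Cxcl13 and its receptor Cxcr5, 1 bar per library with separate scales. Ccl21a stands at 40.0 and 10.7 CPM after resveratrol and 1.82 and 3.23 CPM in obese fat, while Cxcl13 and Cxcr5 are highest in resveratrol library 2.

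Cxcl12 was at 137 and 230 CPM in the treated libraries and at 176 and 131 CPM in the obese group, so the groups overlapped. The log2 difference was 0.25 (SE 0.385, adjusted p = 0.927 in edgeR's test), and -0.16 without resveratrol library 2. Its receptor genes Cxcr4 and Ackr3 (an atypical receptor) differed between the resveratrol libraries too. Cxcr4 was at 3.00 and 23.6 CPM after resveratrol, 15.3 and 21.2 CPM in obese fat and 1.18 CPM in the chow control, and Ackr3 at 19.0 and 58.7 CPM after resveratrol, 33.6 and 26.7 CPM in obese fat and 15.5 CPM in the chow control. Ccl25 was at 6.49 and 3.73 CPM after resveratrol and 5.32 and 4.14 CPM in obese fat, again overlapping. Ccl27a was at 16.6 and 4.55 CPM after resveratrol and 4.64 and 4.00 CPM in obese fat, giving a log2 difference of 1.29 (SE 0.734, adjusted p = 0.899) that was 0.09 without resveratrol library 1. Cxcl14 was at 42.2 and 12.8 CPM after resveratrol and 61.3 and 54.8 CPM in obese fat, and here resveratrol library 2 was the lowest library. Without resveratrol library 1 its log2 difference was -2.18.

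Among inflammatory ligands, Ccl12 and Cx3cl1 were higher in both resveratrol libraries. Ccl12 was at 1.63 CPM in each resveratrol library (36 and 42 counts) and at 0.365 and 0.285 CPM in the obese group (7 and 6 counts), giving a log2 difference of 2.31 (SE 0.701, unadjusted p = 0.0278, adjusted p = 0.899 in edgeR's test). The 95% exact intervals were 1.14 to 2.26 CPM in resveratrol library 1 and 1.18 to 2.21 CPM in library 2. These libraries differ widely in macrophage and adipocyte transcripts, and the part of that in the level of Ccl12 was not tested. Cx3cl1 was at 45.6 and 11.4 CPM after resveratrol and 6.72 and 4.14 CPM in obese fat, giving a log2 difference of 2.39 (SE 0.792, unadjusted p = 0.0376, adjusted p = 0.899). Without resveratrol library 1 that difference was 1.08. Cx3cr1, the fractalkine receptor of monocytes and macrophages, was at 5.36 and 4.27 CPM after resveratrol, 1.93 and 7.09 CPM in obese fat and 17.6 CPM in the chow control, so its groups overlapped.

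Ccl2, Ccl7 and Ccl8, the remaining monocyte attractants, were each lowest in resveratrol library 1 among the libraries on the high-fat diet. Ccl2 was at 5.54 and 30.9 CPM in the treated libraries and at 25.6 and 30.6 CPM in the obese group. Resveratrol library 2 lay at the top of the obesity range and resveratrol library 1 far below it. The log2 difference was -0.62 (SE 0.861, adjusted p = 0.918 in edgeR's test), 0.15 without resveratrol library 1 and -2.34 when library 2 was left out. Ccl7 was at 6.35 and 27.7 CPM after resveratrol and 43.7 and 31.4 CPM in obese fat, below both obesity libraries in each case. Ccl8 was at 5.17 and 18.6 CPM after resveratrol and 18.8 and 7.89 CPM in obese fat, so its groups overlapped. Ccr2 itself was at 10.1 and 89.7 CPM after resveratrol, 72.9 and 124 CPM in obese fat and 1.15 CPM in the chow control, and resveratrol library 1 was again the low one of the 4 libraries on the high-fat diet.

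Ccl6 and Ccl9 were lower in both resveratrol libraries, and farther below obesity in library 1 than in library 2. Ccl6 was at 40.1 and 300.1 CPM after resveratrol and 369 and 368 CPM in obese fat. Ccl9 was at 55.0 and 285 CPM after resveratrol and 481 and 450 CPM in obese fat. As a share of the obesity mean, resveratrol library 1 held 10.9% of Ccl6 and 11.8% of Ccl9, and resveratrol library 2 held 81.4% and 61.2%. Ccl5 was at 8.44 and 5.01 CPM after resveratrol and 3.34 and 7.51 CPM in obese fat, the member of the 5 myeloid CC ligands whose level in resveratrol library 1 was not low. Ccl3 was at 0.772 and 3.11 CPM after resveratrol and 2.19 and 1.28 CPM in obese fat, and Ccl4 at 0.772 and 2.25 CPM after resveratrol and 2.97 and 0.856 CPM in obese fat.

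Cxcl9 was at 5.13 and 17.8 CPM after resveratrol and 26.4 and 39.1 CPM in obese fat, giving a log2 difference of -1.51 (SE 0.700, unadjusted p = 0.0942, adjusted p = 0.899 in edgeR's test). With 1 library left out that difference ran from -2.67, without resveratrol library 2, to -0.87. Cxcl10, induced by the same interferon, did not share that order, at 3.99 and 4.70 CPM after resveratrol and 3.34 and 3.66 CPM in obese fat. Cxcr3, their receptor on effector T cells, was at 1.95 and 2.68 CPM after resveratrol, 1.88 and 3.19 CPM in obese fat and 0.732 CPM in the chow control. Ifng, the gene of the inducing cytokine, was not tested and had at most 4 counts in a library. Ccl22 was at 1.32 and 2.80 CPM after resveratrol and 3.96 and 4.99 CPM in obese fat, giving a log2 difference of -1.12 (SE 0.647, adjusted p = 0.899). Ccl11 was at 5.08 and 58.8 CPM after resveratrol and 60.8 and 69.1 CPM in obese fat, and Ccl24 at 2.09 and 15.04 CPM after resveratrol and 3.81 and 6.52 CPM in obese fat. Ccr3, the eotaxin receptor of eosinophils, stayed under 1 CPM in all 5 libraries. Cxcl16 was at 15.7 and 25.6 CPM after resveratrol and 29.5 and 22.1 CPM in obese fat, and Ccl17 at 0.272 and 0.0777 CPM after resveratrol and 0.156 and 0.381 CPM in obese fat, overlapping in both cases.

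The neutrophil attractants Cxcl1 and Cxcl2, ligands of CXCR2, were highest in resveratrol library 2 alone. Cxcl1 was at 0.454 and 10.7 CPM after resveratrol, 2.81 and 3.23 CPM in the obese group and 0.105 CPM in the chow control. Cxcl2 was at 0.454 and 15.9 CPM after resveratrol, 1.82 and 3.33 CPM in obese fat and 0 counts in the chow control. Resveratrol library 2 thus held 353% of the obesity mean of Cxcl1 and 618% of that of Cxcl2. The same library had the highest Il1b and Il6, cytokine genes that induce or accompany these ligands. Il1b was at 0.590 and 3.96 CPM after resveratrol, 0.209 and 0.571 CPM in obese fat and 1.01 CPM in the chow control, and Il6 at 0.272 and 2.29 CPM after resveratrol, 0.156 and 0.0476 CPM in obese fat and 0.139 CPM in the chow control. The 6 neutrophil markers summed to 3.59 and 19.7 CPM after resveratrol, 15.2 CPM in each obesity library and 2.30 CPM in the chow control, with Ly6g at 0 in every library. Csf3r carried the sum in resveratrol library 2, at 15.15 CPM against 7.5 and 8.6 CPM in obese fat. S100a8 went the other way, at 4.12 CPM in that library against 7.14 and 6.1 CPM in obese fat. Cxcr2 was not tested, with 6 counts in obesity library 2 and 0 in the others.

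Cxcl1, Cxcl2 and Cxcl3 lie in a cluster on chromosome 5, and their promoters are shown because Cxcl1 and Cxcl2 were high in the same library. Promoter entries of 300 bases from RefSeq (GRCm38.p6) were searched on both strands for an NF-kB motif spelled GGG, then 2 bases of any kind, then TTTCC. The 150 bases before each start site are printed, and capitals mark the matches.
Cxcl1, chr5:90891095-90891244, plus strand: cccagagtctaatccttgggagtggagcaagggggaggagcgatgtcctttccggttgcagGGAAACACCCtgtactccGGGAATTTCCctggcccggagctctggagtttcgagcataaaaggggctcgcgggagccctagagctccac
Cxcl2, chr5:90903749-90903898, plus strand: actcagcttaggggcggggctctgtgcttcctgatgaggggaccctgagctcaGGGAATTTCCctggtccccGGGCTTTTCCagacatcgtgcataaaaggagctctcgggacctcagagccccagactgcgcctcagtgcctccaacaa
Cxcl3, chr5:90785951-90786100, plus strand: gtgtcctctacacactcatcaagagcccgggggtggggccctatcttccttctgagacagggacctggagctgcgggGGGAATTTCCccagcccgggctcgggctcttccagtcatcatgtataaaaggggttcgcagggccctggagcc
The motif occurred in 535 of 32851 promoter entries (1.63%) and in 5 of the 27 ligands with an entry, namely Ccl9, Ccl20, Cxcl1, Cxcl2 and Cxcl3. An interferon-response motif spelled TTTC, 2 bases of any kind and TTTC again occurred in 3.44% of entries and in those of Ccl19, Cxcl10 and Cxcl14. Cxcl3, which holds the same letters GGGAATTTCC as Cxcl1 and Cxcl2, had 0 and 1 counts after resveratrol, 0 and 3 in obesity and 0 in the chow control. A match of letters is a description of the sequence and names no active site.

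**Figure D5:**
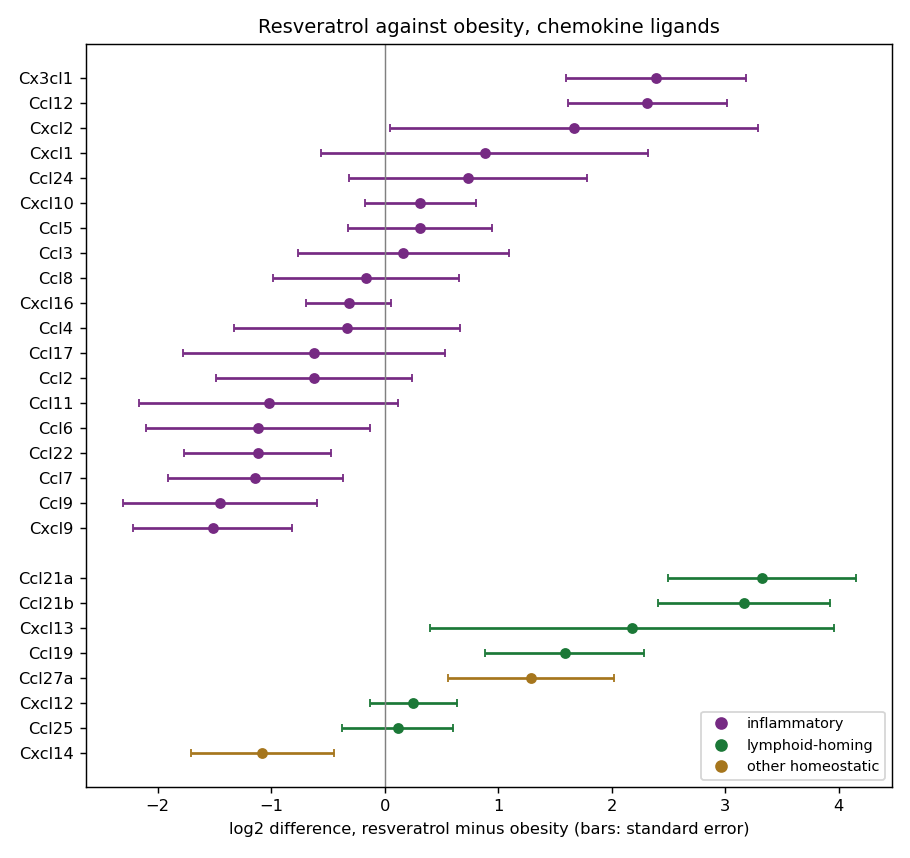
Points give the log2 difference of each ligand that reached 1 CPM, resveratrol minus obesity, with its standard error from the edgeR fit, grouped by class. Ccl21a at 3.32 and Ccl21b at 3.16 lie farthest from 0, Cxcl9 at -1.51 is the lowest, and no ligand passed the adjusted threshold. Cxcl15, at 0 counts in all 4 of these libraries, is not drawn.

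Resveratrol was also set against control, a comparison that shares its libraries with both comparisons above. Of 30 tested ligands 23 were higher after resveratrol, against 51.4% of all genes, and the median log2 difference was 5.60 for inflammatory and 1.5 for lymphoid-homing ligands, against 0.05 for all genes. In edgeR's test 0 ligands passed (0% of all genes passed), with a smallest adjusted p of 0.224. At an unadjusted p under 0.05 there were 12 higher and 0 lower, against 10.5% and 8.05% of all genes. DESeq2 called 13 higher and 0 lower, against 8.29% and 4.16% of all genes, while limma-voom called 0 (0.323% of all genes). The edgeR count was 18 of 30 without resveratrol library 1 (30.7% of all genes were called) and 11 when library 2 was left out (17.2% of all genes). Leaving out library 2 also moved the inflammatory median to 3.46, and testing with no filter on low counts gave 3.71.

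The inflammatory ligands with the smallest p were Ccl7, Cxcl9, Ccl9 and Ccl24. Ccl7 was at 6.35 and 27.7 CPM after resveratrol and 0.139 CPM in the chow control, giving a log2 difference of 6.88 (SE 1.43, adjusted p = 0.224 in edgeR's test). Cxcl9 differed by 5.74 (SE 1.19, adjusted p = 0.224) and Ccl9 by 6.12 (SE 1.44, adjusted p = 0.237) on the log2 scale. Ccl24, at 2.09 and 15.04 CPM after resveratrol and 0 counts in the chow control, was at least 81.9-fold higher against the floor. Ccl2 differed by 5.84 (SE 1.49, adjusted p = 0.238). Even resveratrol library 1, with the lowest Ccl2 of the high-fat libraries at 5.54 CPM, lay above the control value of 0.314 CPM.

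Of the lymphoid-homing ligands Cxcl12 had the smallest p, at 137 and 230 CPM after resveratrol and 46.2 CPM in the chow control, giving a log2 difference of 1.99 (SE 0.521, adjusted p = 0.238 in edgeR's test). Ccl25 was lower after resveratrol, at 6.49 and 3.73 CPM against 12.7 CPM in the chow control, giving a log2 difference of -1.31 (SE 0.579, adjusted p = 0.300). Ccl21b differed by 1.69 (SE 0.919, adjusted p = 0.351) and Ccl19 by 1.47 (SE 0.882, adjusted p = 0.382). The control value of Ccl21a, 12.1 CPM, lay between the resveratrol libraries at 40.0 and 10.7 CPM. Its log2 difference of 1.07 (SE 0.968, adjusted p = 0.536) was -0.15 without resveratrol library 1. Cxcl13 differed by 1.52 (SE 2.23, adjusted p = 0.701), and by -3.35 without resveratrol library 2.

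Across the 23 receptor genes, 17 were tested and 0 passed in any comparison in edgeR's test (0% of all genes passed). DESeq2 called 4 receptor genes higher and 1 lower in obesity against control, against 10.8% and 7.44% of all genes. It called 0 in resveratrol against obesity (0.803% of all genes higher and 0.0807% lower). In resveratrol against control it called 3 higher (8.29% of all genes), and limma-voom called 0 (0.323% of all genes). In obesity against control 14 were higher and 3 lower, with an unadjusted p under 0.05 for 5 higher, Ccr2, Ccr3, Ackr2 and Ccrl2 among them, and 1 lower. Of all genes, 46.9% were higher, and 12.6% were higher and 11.7% lower at that p. Ackr4 was the lower one, at 0.886 and 0.666 CPM in obese fat and 17.5 CPM in the chow control, giving a log2 difference of -4.48 (SE 0.693, unadjusted p = 0.00247, adjusted p = 0.164). With resveratrol against obesity 10 were higher (52.8% of all genes) and 7 lower. Of the higher ones 2, Ackr4 and Cxcr5, had an unadjusted p under 0.05, against 1.92% of all genes. For resveratrol against control 14 were higher (51.4% of all genes) and 3 lower. Here the unadjusted p was under 0.05 for 5 higher, Ccr2, Ccr3, Ccrl2 and Cxcr5 among them, and for 1 lower, Ackr4. Of all genes, 10.5% were higher and 8.05% lower at that p. Of 14 upstream genes (cytokines, NF-kB subunits and interferon factors), 12 were tested and 0 passed. DESeq2 called 1 of them higher in obesity against control (10.8% of all genes) and 0 in resveratrol against obesity (0.803%). In resveratrol against control it called 2 higher (8.29% of all genes), and limma-voom called 0 (0.323% of all genes). Of the 12 tested upstream genes, 10 were higher in obesity against control (46.9% of all genes). When resveratrol was set against obesity 7 were higher (52.8%), and 12 when it was set against control (51.4%). An unadjusted p under 0.05 was reached by 4 higher genes in obesity against control, Relb, Nfkb1 and Nfkb2 among them (12.6% of all genes). Ltb reached it when resveratrol was set against obesity (1.92% of all genes were higher at that p). Relb, Nfkb1 and Ltb, 3 higher genes, did so when resveratrol was set against control (10.5% of all genes). Nfkb1, an NF-kB subunit gene, was at 81.4 and 78.8 CPM after resveratrol, 64.8 and 75.7 CPM in obese fat and 36.1 CPM in the chow control, and Tnf at 0.545 and 1.24 CPM after resveratrol, 0.834 and 1.90 CPM in obese fat and 0.139 CPM in the chow control.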

How the data were processed

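Raw whole-number counts per Ensembl gene were deposited by the authors for 5 libraries. Per the submitters' processing notes, FastQC and featureCounts were used on GRCm39. For the aligner, annotation release, strand setting and versions, nothing is given in the sources used here. Per the labels' protocols, stranded poly-A libraries were sequenced as read pairs. The values are whole numbers with unequal totals, and no normalisation is recorded.

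Symbols came from a reference table of Ensembl identifiers and symbols, and exon lengths and coding sequences from GENCODE M21 (GRCm38). The analysis ran in edgeR 4.0.16 under R 4.3.3. filterByExpr by group (minimum count 10, minimum total 15) kept 24779 genes, and TMM scaled the totals. All 5 libraries entered 1 quasi-likelihood model with robust dispersion, whose F tests were adjusted with Benjamini-Hochberg over all genes at 0.05. Control has 1 library, so its spread was taken to equal that of the other groups. The SE is the absolute log2 difference divided by the square root of F. Where a group has a count of 0, folds are lower bounds against 3 counts per library. Intervals are exact (Clopper-Pearson, 95%) and, like floors, cover counting error only, since no molecular identifiers are named.

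The ligands, gene lists and alternatives were chosen with earlier results of these data known. All ligands reaching 1 CPM are given by library. Log2 differences are given, in each comparison, for the 4 inflammatory and 4 homeostatic ligands with the smallest p, for Ccl2, Cxcl12, Cxcl13, Ccl19 and Ccl21a, and for others only where a library decides the value. Cxcl14 without resveratrol library 1, and the receptors and upstream genes given with values, were chosen after their values were seen. Alternatives were median-ratio size factors, other filters, DESeq2 1.42.0, limma-voom (limma 3.58.1), a replicate block, leaving out libraries, the groups compared alone and a model without robust dispersion. The fit was checked on simulated data. Python 3.11.15 with matplotlib 3.10.9 drew the figures. Single values of some receptor, marker and upstream genes are not reported here.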

Additional observations from a re-analysis of the deposited data

How the results depend on the processing

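The named ligands kept their direction in 393 of 402 values over the alternatives. The number of ligands called, 0 in each comparison, stayed 0 with median-ratio size factors, a stricter filter, limma-voom, the replicate block and a model without robust dispersion. Of all genes, these alternatives also called 0%, except limma-voom in resveratrol against control (0.323%). In obesity against control it was 6 of 38 with no filter (5.92% of all genes were called), 14 with DESeq2 (18.3%) and 21 of 30 with only the groups compared (39.4%). In resveratrol against obesity it was 2 with DESeq2 (0.884%) and 1 without the control library and resveratrol library 1 together (0.334%). In resveratrol against control it was 5 with no filter (3.84%) and 13 with DESeq2 (12.5%). Leaving out 1 library each gave from 0 to 22 calls in obesity against control, 0 to 10 in resveratrol against obesity and 0 to 18 in resveratrol against control.

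The median log2 difference of inflammatory ligands in obesity against control was 4.56 with no filter, 6.35 with a stricter filter and 5.04 with limma-voom, and from 5.03 to 5.78 with 1 library left out. In resveratrol against control it was 3.71 with no filter, 4.34 with the replicate block and from 3.46 to 6.37 with 1 library left out. In resveratrol against obesity it ran from -1.36 to 0.06 with 1 library left out. Other filters test other numbers of genes (21 inflammatory ligands as reported, 27 with no filter, 17 with the stricter one). For lymphoid-homing ligands the median was -1.54 in obesity against control with the stricter filter. In resveratrol against obesity it was 0.98 with limma-voom, 1.11 with the replicate block and from 1.03 to 2.11 with 1 library left out, and in resveratrol against control 1.10 with limma-voom. The cause of the moves under limma-voom and the block was not tested.

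Directions turned for 5 ligands. Cxcl13 in resveratrol against control was -0.25 with limma-voom, -0.81 with the replicate block and from -3.35 to 2.52 with 1 library left out. In resveratrol against obesity, leaving out 1 library gave from -2.71 to 3.17 for Cxcl13, -0.16 to 0.59 for Cxcl12 and -2.34 to 0.15 for Ccl2, which was also 0.15 without the control library and resveratrol library 1 together. Ccl21a in resveratrol against control ran from -0.15 to 1.75, and Ccl19 in obesity against control from -0.33 to 0.10. Replicate numbers are shared by the obesity and resveratrol groups, but the labels do not say that they pair libraries. The differences of library 1 minus 2 in these groups correlated at 0.299 across genes. The replicate block changed 0 calls of ligands. Low counts limit Ccl12, Ccl17, Ccl19 and Cxcl13, and 1 control library limits both comparisons with it.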

Other observations

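Pf4 and Ppbp encode chemokines of platelets whose symbols lie outside the rule. Pf4, which macrophages also express, was at 20.9 and 76.7 CPM after resveratrol, 66.6 and 94.1 CPM in obese fat and 3.07 CPM in the chow control, after resveratrol library 1 the lowest of the libraries on the high-fat diet. Ppbp was at 0.182 and 0.661 CPM after resveratrol, 1.04 and 0.809 CPM in obese fat and 0.488 CPM in the chow control.

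Other cell type markers also differed by library. The 6 mesothelial markers summed to 359 and 221 CPM after resveratrol, 199 and 20.5 CPM in obese fat and 361 CPM in the chow control. Krt8 and Krt19 carried the sum in the chow control (238 and 122 CPM) and in resveratrol library 1 (146 and 206 CPM). Msln, Upk3b, Wt1 and Lrrn4 lay between 0.209 and 0.348 CPM in the chow control. They were each highest in resveratrol library 2, at 65.3, 108, 11.7 and 14.8 CPM. The 7 endothelial markers summed to 201 and 1079 CPM after resveratrol, 640 and 535 CPM in obese fat and 166 CPM in the chow control. The 6 fibroblast and progenitor markers summed to 1163 and 2222 CPM after resveratrol, 2231 and 1696 CPM in obese fat and 432 CPM in the chow control. Pdgfra and Dpp4 were highest in the chow control, at 150 and 82.1 CPM, whereas Col1a1, Dcn, Lum and Pi16 were lowest there. The 5 mast cell markers summed to 117 and 60.7 CPM after resveratrol, 31.8 and 19.7 CPM in obese fat and 22.9 CPM in the chow control, where Cpa3 and Mcpt4 were at 0. Kit held 22.7 CPM of that control sum, and Tpsb2 and Cma1 were at 0.105 and 0.0697 CPM there. Resveratrol library 1 was the highest library for mast cell markers.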
